A study of Saccharomyces cerevisiae with 26 samples.

Results

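In the late reductive-building (RB) phase of the yeast metabolic cycle, RNA levels were compared between budding yeast carrying the TAF14[W81A] substitution and wild type, gene by gene. The comparison uses all RNA libraries labelled as time point 4, which are 2 from the mutant and 2 from wild type, or 4 of the 26 samples of the series. Of 6008 genes in the deposited RNA table, 5941 could be tested. Both genotypes are CEN.PK strains of Saccharomyces cerevisiae grown in continuous culture, a set-up in which the whole culture goes through repeated bursts of oxygen use. Per the labels, RNA was taken at early and late OX (the oxidative phase), early and late RB and RC (the reductive-charging phase), with replicates A and B of each genotype at each. The remaining samples are ChIP libraries of histone H3 and its marks at early and late RB. The labels give no other allele in either strain, and leave unsaid if A and B were grown separately, so p-values measure only the spread between these samples, which may be technical.

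TAF14 is a small subunit shared by the general transcription factors TFIID and TFIIF, the chromatin remodellers SWI/SNF and INO80 and the histone acetyltransferase complex NuA3. Its YEATS domain binds acylated histone lysines, with a preference for crotonyl groups, and tryptophan 81 lies in the pocket that holds the acyl chain. In the metabolic cycle, genes for making ribosomes are transcribed in the OX phase and shut down in RB, when mitochondrial and cell division genes are active, while stress, storage-carbohydrate and peroxisomal genes peak in RB and RC. The comparison asks which RNAs differ at late RB when this residue is changed.

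The level of a gene is given below in normalised reads, which are reads of 1 library put on the authors' scaling and not divided by gene length, so that they compare libraries and not genes. They were recovered from the deposited levels, in which the 2 libraries of a group are combined, and are called libraries 1 and 2 because the recovery does not tell A from B. Over the 5434 genes with a unique solution in every group, the mutant libraries held 2479675 and 2490051 reads and the wild-type libraries 3187080 and 2820867. Across genes, Pearson's r between libraries was 0.992 in the mutant and 0.993 in wild type, with a median SD of 0.0676 and 0.0613 on the log2 scale. Differences are mutant minus wild type on the scale log2(normalised reads + 1), which understates the change of genes with few reads, with the SE of a limma fit and n = 2 libraries per group. A gene is called higher or lower at a Benjamini-Hochberg adjusted p under 0.05 over all 5941 genes (limma, two-sided). For some strongly expressed genes the split between the 2 libraries could not be solved. Such a group entered the fit as its mean, and the deposited log2 level (per kilobase) is given for it instead. The reads were made with a directional kit, but whether counting used the strand is not stated, so genes that overlap, and near-identical copies such as paralogous ribosomal protein, histone, HSP70 and enolase genes, are less certain.

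TAF14 itself is altered by 1 amino acid, so its RNA does not check the labels. It had 619 and 592 normalised reads in the mutant, against 523 and 491 in wild type (YPL129W, chromosome XVI, 305298 to 306137 on sacCer3). Both mutant libraries lay above both wild-type libraries, by 0.26 ± 0.06 (log2, SE, limma adjusted p = 0.0028). In the authors' deposited table the adjusted p of TAF14 is 0.1.

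RNAs of many functions differed between the strains. Of the 5941 genes tested, 1517 were higher in the mutant (25.5%) and 1292 lower (21.7%), which makes 47.3% called. The differences were mostly moderate, with a median size of 0.515 among called genes, and 336 genes were higher and 148 lower by at least 1 log2. At 2 log2 or more there were 21 higher and 23 lower genes. The 2 mutant libraries did not overlap the 2 wild-type libraries in 76.2% of the 5696 genes whose 4 libraries are all known. With 2 libraries per group, lack of overlap is common even without a difference, so this share is only a description. The balance of the calls depends on the scaling. Upper-quartile scaling, which shifts every difference up by 0.0771, gave 1858 higher and 992 lower genes, or 65.2% higher calls against 54% with the authors' scaling. By the adjusted p-values of the authors' deposited table, 1114 genes were higher and 1165 lower, and of the calls made here 2088 were also called there in the same direction and 0 in the opposite one.

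**Figure D1:**
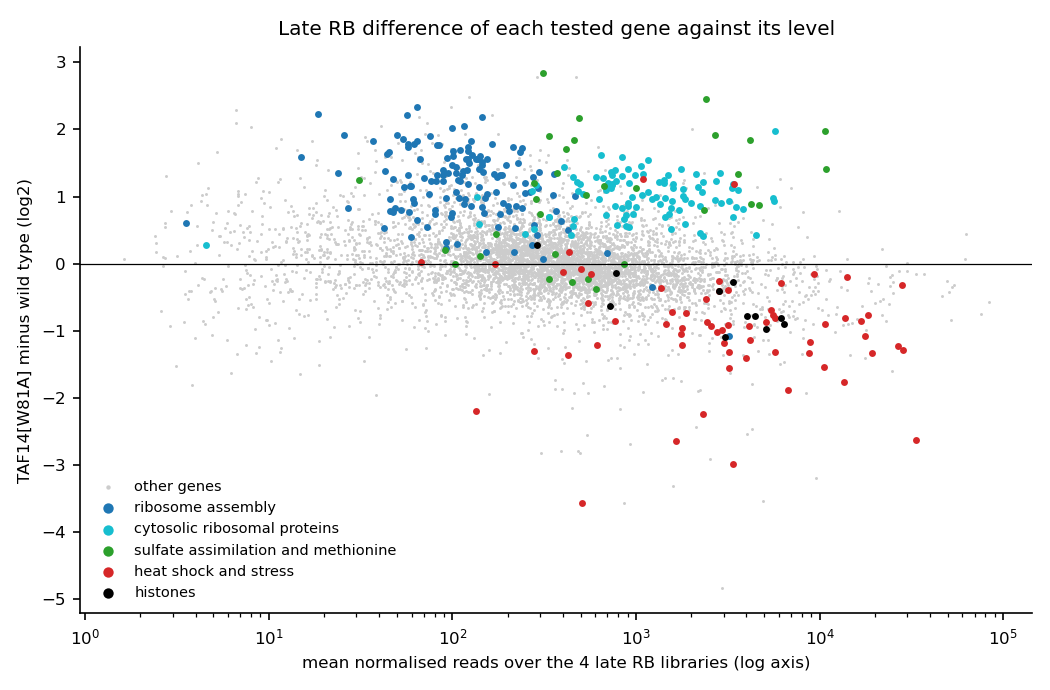
Difference at late RB (TAF14[W81A] minus wild type, log2) of each tested gene against its mean normalised reads over the 4 libraries (log axis), with 5 groups of genes coloured. Ribosome assembly genes lie above 0 with few exceptions and at low read numbers, cytosolic ribosomal protein genes lie above 0 at higher read numbers, and heat shock, stress and histone genes lie mostly below 0.

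The 12 genes with the largest increases included 3 of the methionine list and 3 of ribosome assembly. MUP1, the high-affinity methionine permease, had 666 and 433 normalised reads in the mutant, against 77.6 and 70.5 in wild type (YGR055W, chromosome VII, 599417 to 601141). The mutant libraries differed from each other, and the difference was 2.84 ± 0.15 (adjusted p = 2e-09), or 7.18-fold. Genes named for size were taken only where known libraries did not overlap, so the lack of overlap is no separate support. UTR2, which links chitin to glucan in the cell wall, had 494 and 525 reads against 71.9 and 73.8 in wild type (2.79 ± 0.10). SFG1, a regulator of surface growth and pseudohyphal growth, had 862 and 784 reads in the mutant, against 116 and 122 in wild type (2.78 ± 0.10). Both genes had tight pairs of libraries. RPA49, a subunit of RNA polymerase I, had 217 and 202 reads in the mutant, against 41.2 and 32.5 in wild type (2.48 ± 0.16).

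The list of the largest increases continued with MET14, the kinase that activates sulfate, whose deposited log2 level was 11.08 in the mutant and 8.63 in wild type (2.45 ± 0.09). SSF1 and SDA1, which act in assembly of the large ribosomal subunit, were higher by 2.33 ± 0.16 and 2.19 ± 0.11, TSR2, a chaperone of a small-subunit ribosomal protein, by 2.22 ± 0.15 and SYO1, which imports ribosomal proteins into the nucleus, by 2.10 ± 0.15. RMT2, which methylates a ribosomal protein, was higher by 2.21 ± 0.09, and the tRNA methyltransferase gene TRM11 by 2.19 ± 0.22. SAM1, which makes S-adenosylmethionine, was higher by 2.18 ± 0.10. All of these had adjusted p-values of 6e-07 or below.

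Genes for building ribosomes were higher nearly as a whole. Of 60 genes of the small-subunit processome, the particle that folds and cuts the precursor of the small-subunit rRNA, 55 were higher and 1 was lower, with a median of 1.20. Of 78 genes of large-subunit and other ribosome assembly, 72 were higher and 1 lower (median 1.29). Over all tested genes the median was 0.01. Among the processome genes, RRT14 had 153 and 166 reads in the mutant, against 48.9 and 30.4 in wild type (2.02 ± 0.23), FCF2 had 127 and 114 against 36.4 and 27.1 in wild type (1.90 ± 0.14), and UTP23 had 93.1 and 76.6 against 25.9 and 19.5 in wild type (1.86 ± 0.16). The wild-type libraries held few reads of these genes. Genes named from a list were chosen without overlap of known libraries, so the gap between groups adds no support. The processome member that went down was ESF1, with 2026 and 2101 reads in the mutant against 4337 and 4393 in wild type (-1.08 ± 0.08). It stood apart from the list in level as well as in direction, and is named after its values were seen. In absolute terms these RNAs remained scarce in both strains, with a median deposited log2 level of 4.55 in the mutant and 3.50 in wild type for the processome, and of 5.39 and 4.16 for large-subunit and other assembly, against 6.38 in the mutant and 6.36 in wild type over all genes. In the mutant, 51 of 60 processome genes and 61 of 78 assembly genes had more normalised reads in library 1 than in library 2, by a median of 0.15 and 0.20 log2. In wild type 40 and 52 had more in library 1, by 0.11 in both lists. Without any 1 library, 50 to 56 processome genes and 71 or 72 assembly genes were still higher.

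The polymerases that transcribe rRNA and tRNA genes moved with them in part. Of 37 genes of RNA polymerases I and III and their factors, 21 were higher and 5 lower (median 0.55). Besides RPA49, RPC34 of polymerase III had 204 and 193 reads in the mutant and 66.1 and 62.9 in wild type (1.61 ± 0.13), and RPA135, the second-largest subunit of polymerase I, had 347 and 328 in the mutant and 124 and 111 in wild type (1.52 ± 0.14). The 5 that were lower, named after their values were seen, were BDP1, TFC3, RRN3, MAF1 and TFC6, by 0.20 to 0.42 in size. BDP1, TFC3 and TFC6 belong to the initiation factors of polymerase III, RRN3 is the initiation factor of polymerase I, and MAF1 represses polymerase III. The lower count was 3 without mutant library 2 and 3 without wild-type library 1, and 2 of the 5 were also lower by the authors' deposited table.

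Cytosolic ribosomal protein genes were higher as uniformly as the assembly genes. Of 99 tested, 97 were higher and 0 lower, with a median of 1.00 and a range of 0.28 to 1.97. The other 33 of 132 could not be tested here. All 131 of 131 genes with an adjusted p in the authors' deposited table were higher. RPS22A, a small-subunit protein, had 1227 and 1297 reads in the mutant, against 428 and 411 in wild type (1.59 ± 0.09, adjusted p = 2.7e-09). RPS26B had 945 and 1010 reads in the mutant and 322 and 310 in wild type (1.62 ± 0.11), and RPL26B 1695 and 1756 in the mutant and 590 and 586 in wild type (1.55 ± 0.09). The libraries of each strain lay close together and far from those of the other. These genes were named for large differences without overlap of libraries, so the gap adds no support. Unlike the assembly genes, the ribosomal protein genes are abundant at late RB, with a median deposited log2 level of 10.3 in the mutant and 9.29 in wild type.

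Other parts of the translation apparatus were higher less evenly. Of 49 aminoacyl-tRNA synthetase and translation factor genes, 31 were higher and 4 lower (median 0.34). Over all tested genes, 25.5% were higher and 21.7% lower. The elongation factor gene YEF3 had 3467 and 3294 reads in the mutant, against 1356 and 1296 in wild type (1.35 ± 0.08), the lysyl-tRNA synthetase gene KRS1 had 224 and 212 against 97.8 and 85.7 in wild type (1.24 ± 0.11), and the tryptophanyl-tRNA synthetase gene WRS1 was higher by 1.05 ± 0.11. Mitochondrial ribosomal protein genes did not share the increase, with 7 of 77 higher and 16 lower (median -0.10), against 12 higher and 12 lower under upper-quartile scaling and 4 and 3 higher without mutant library 1 and without mutant library 2. The lower share of this list was near that of all genes, and the higher share was below it. Among its members, RSM24 was lower by 0.50 ± 0.10 and MRPL44 higher by 0.61 ± 0.11.

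**Figure D2:**
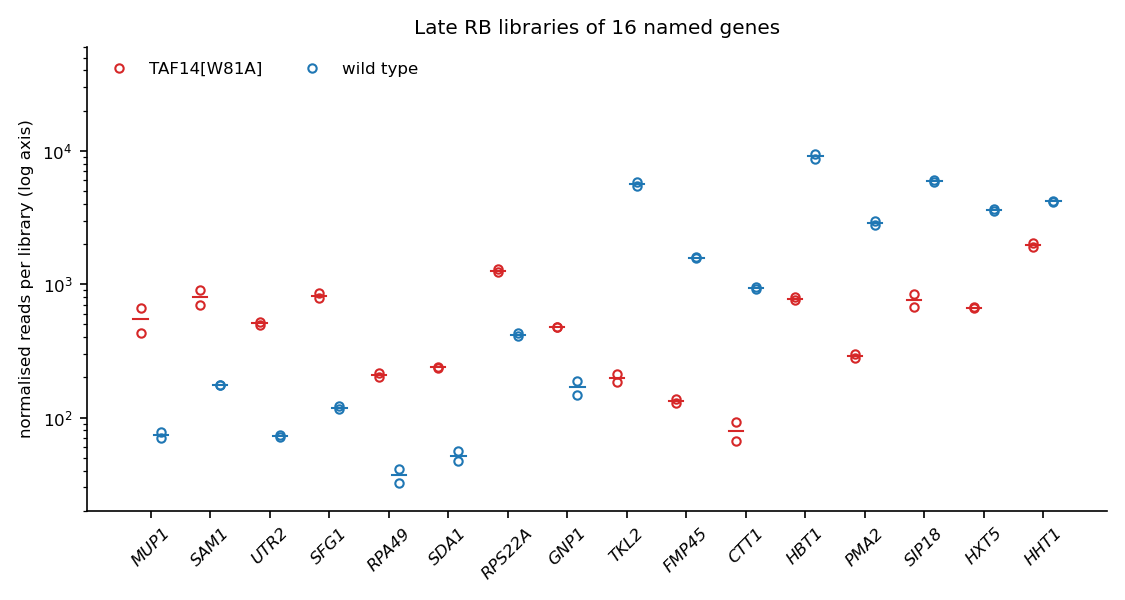
Normalised reads in each late RB library (circles, log axis) for a selection of the named genes, with the mean of the 2 libraries as a bar, TAF14[W81A] left of wild type for each gene. No pair of groups overlaps, since the genes were chosen that way, and MUP1, SAM1, CTT1 and SIP18 show a visible gap between the 2 mutant libraries.

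Genes of sulfate assimilation and methionine were mostly higher. In yeast, sulfate is taken up, activated, reduced to sulfide and built into homocysteine, from which methionine, S-adenosylmethionine and cysteine are made, and transcription of these genes follows the supply of methionine and cysteine. Of 32 genes of sulfate assimilation and methionine, 22 were higher and 4 lower (median 1.08). Besides MUP1, MET14 and SAM1 they included MET5, a subunit of sulfite reductase, with 7488 and 5534 reads in the mutant against 1886 and 1713 in wild type (1.84 ± 0.11), MET1, which makes the haem-like group of that enzyme, with 897 and 558 reads against 213 and 180 in wild type (1.85 ± 0.20), and CYS3, which makes cysteine, with 716 and 566 reads against 202 and 188 in wild type (1.70 ± 0.12). All the mutant values given here lay above the wild-type values of the same gene, which adds no support. MET5, MET1 and CYS3 were named from comparisons that include the late RB difference. Over all genes with 4 known libraries, 76.2% showed no overlap. In 21 of the 26 genes with known mutant libraries, mutant library 1 held more than library 2, by a median of 0.27 log2, while over all genes this difference had a median of 0.0042. In wild type 22 of 32 were higher in library 1, by a median of 0.09. Without mutant library 1, 15 of 26 were higher and 1 lower, with a median of 0.78. The part of this spread between the mutant libraries in the result was not tested. The 4 lower genes, named after their values were seen, were STR2, MET12, MET4 and MET30, by 0.23 to 0.38 in size, and 2 of 32 were lower when wild-type library 1 or library 2 was left out. MET4 is the transcriptional activator of the pathway and MET30 the ubiquitin ligase subunit that restrains it.

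Genes of nitrogen uptake and of other amino acids went both ways, as did all tested genes (25.5% higher and 21.7% lower). The lower shares of these 2 lists lay near that of all genes, and the higher shares above it. Of 41 nitrogen genes, 15 were higher and 11 lower (median 0.06). The broad amino acid permease AGP1 had 278 and 281 reads in the mutant, against 80.5 and 65.1 in wild type (1.94 ± 0.09), and the glutamine permease GNP1 had 477 and 481 against 189 and 149 in wild type (1.51 ± 0.16). The ammonium permease MEP3 went the other way, with 855 and 827 reads in the mutant and 2084 and 2242 in wild type (-1.36 ± 0.07). Of 68 genes of other amino acid synthesis, 30 were higher and 14 lower (median 0.16), with SER33 of serine synthesis higher by 1.39 ± 0.13, ILV5 of branched-chain synthesis higher by 0.61 ± 0.11 and the transaminase BAT2 lower by 1.02 ± 0.10. Of 21 genes of purine and GTP synthesis, 13 were higher and 1 lower (median 0.41). They included the purine and cytosine permease FCY2, with 1116 and 790 reads in the mutant against 306 and 259 in wild type (1.74 ± 0.12), the GMP synthetase GUA1 (1.32 ± 0.08) and the salvage enzyme HPT1 (1.21 ± 0.10).

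The 12 genes with the largest decreases included 2 of the oxidative and general stress list, CTT1 and SIP18. TKL2, the minor transketolase of the pentose phosphate pathway, had 186 and 212 normalised reads in the mutant, against 5466 and 5850 in wild type (YBR117C, chromosome II, 474392 to 476437). The 2 groups were far apart, with a difference of -4.83 ± 0.21 (adjusted p = 1.1e-10), or 0.0353-fold. FMP45, a membrane protein of stationary phase, had 137 and 128 reads in the mutant and 1600 and 1558 in wild type (-3.56 ± 0.21). HBT1, a protein that helps to shape the mating projection, had 760 and 796 reads in the mutant and 8674 and 9457 in wild type (-3.54 ± 0.18). PMA2, the minor isoform of the plasma membrane proton pump, had 278 and 301 reads in the mutant and 2762 and 2996 in wild type (-3.31 ± 0.13). Decreases of similar size were found for EGO4, whose deposited log2 level was 11.01 in the mutant and 14.20 in wild type (-3.19 ± 0.21), the membrane protein genes YRO2 (-2.91 ± 0.12) and IZH4 (-2.82 ± 0.15), the aldehyde dehydrogenase ALD3 (-2.69 ± 0.18) and the enolase-related genes ERR1 (-2.82 ± 0.16) and ERR2 (-2.79 ± 0.26). ERR1 and ERR2 are near-identical copies, so their values are not independent.

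Stress and chaperone genes were lower nearly throughout. Of 34 genes of oxidative and general stress, 26 were lower and 0 higher (median -0.87). CTT1, the cytosolic catalase, had 66.2 and 93.4 reads in the mutant, against 924 and 949 in wild type (YGR088W, chromosome VII, 654634 to 656322), a difference of -3.56 ± 0.28 (adjusted p = 3.9e-08). SIP18, which protects cells during drying, had 674 and 851 reads in the mutant and 5873 and 6091 in wild type (-2.98 ± 0.22), and RTC3 had 443 and 471 in the mutant and 2812 and 2890 in wild type (-2.64 ± 0.16). The groups were separated many times more widely than the libraries within them, which follows in part from naming large differences without overlap.

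Of 29 heat shock and chaperone genes, 26 were lower and 2 higher (median -0.96). HSP12, a small membrane-stabilising protein, had a deposited log2 level of 13.16 in the mutant and 15.79 in wild type (-2.63 ± 0.14). SSE2, an HSP110 chaperone, had 1587 and 1670 reads in the mutant and 4532 and 5092 in wild type (-1.56 ± 0.23), SSA2 of the HSP70 family was lower by 1.33 ± 0.15, and SSA3, the starvation-induced HSP70, by 0.76 ± 0.19. The 2 higher genes, named after their values were seen, were SSB1, with 1584 and 1506 reads in the mutant and 677 and 615 in wild type (1.26 ± 0.07), and SSB2, with 4867 and 4699 in the mutant and 2162 and 2024 in wild type (1.19 ± 0.08). They are near-identical HSP70s that work at the ribosome. With 1 mutant library left out, 16 of 19 heat shock genes that could still be tested were lower, and with 1 wild-type library left out 13 of 16. The 34 proteasome genes followed at a smaller size, with 25 lower and 0 higher (median -0.26), for example RPN6 with 1465 and 1522 reads in the mutant and 2460 and 2354 in wild type (-0.69 ± 0.06). Of 36 autophagy genes, 13 were lower and 2 higher (median -0.21), ATG34 by -0.81 ± 0.14. The lower count of autophagy genes was 8 without mutant library 2 and 8 without wild-type library 1.

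Storage carbohydrate and glycolysis genes were lower more often than all genes (21.7%). Trehalose and glycogen are the reserve sugars that yeast fills before the next OX phase. Of 23 genes of their metabolism, 12 were lower and 2 higher (median -0.60). The glycogen synthase GSY2 had 1525 and 1641 reads in the mutant, against 4881 and 4941 in wild type (-1.63 ± 0.18), and the trehalose phosphate synthase TPS1 had a deposited log2 level of 9.43 in the mutant and 10.93 in wild type (-1.50 ± 0.19). Of 25 genes of glycolysis and fermentation, 12 were lower and 1 higher (median -0.31), with the enolase ENO1 (-1.93 ± 0.11), the glyceraldehyde phosphate dehydrogenase TDH1 (-1.59 ± 0.14) and the glucokinase GLK1 (-1.37 ± 0.20) lowest. Only 13 to 14 glycolysis genes could still be tested without 1 library, and 5 or 6 of them were lower. Of 16 trehalose and glycogen genes that could be tested without a wild-type library, 7 were lower without library 1 and 6 without library 2. Among 20 hexose transporters and sensors, 5 were lower and 2 higher, a lower share near that of all genes, and 3 were lower without mutant library 1, wild-type library 1 or wild-type library 2. HXT5, the transporter of slow-growing cells, had 673 and 658 reads in the mutant and 3526 and 3658 in wild type (-2.43 ± 0.24), while the high-affinity transporter HXT2 had 3285 and 3152 in the mutant and 837 and 763 in wild type (2.01 ± 0.30).

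**Figure D3:**
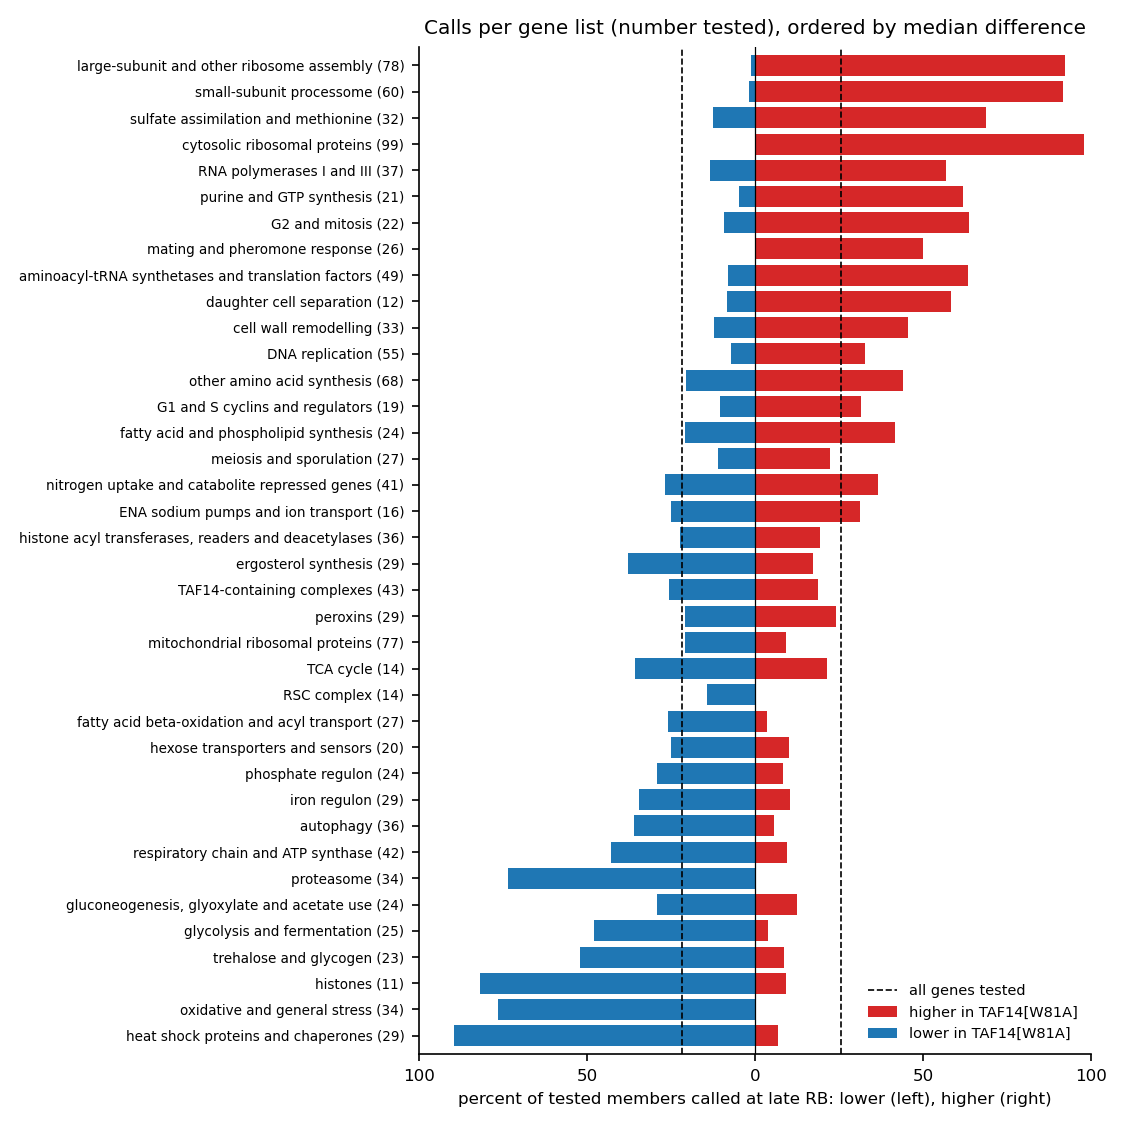
Percent of the tested members of each of 38 gene lists that were called lower (left) and higher (right) in TAF14[W81A] at late RB, ordered by the median difference of the list, with dashed lines at the percent of all tested genes (21.7 lower, 25.5 higher). Ribosome, sulfur and purine lists exceed the line on the right and fall short of it on the left, and heat shock, stress, proteasome and histone lists show the reverse.

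Genes of respiration and of fatty acid and acetate use, many of which peak in RB, showed smaller and less certain differences. Of 42 respiratory chain and ATP synthase genes, 18 were lower and 4 higher (median -0.22), and of 14 TCA cycle genes 5 were lower and 3 higher (median -0.10). KGD1 of the TCA cycle had 3657 and 3723 reads in the mutant and 6597 and 6814 in wild type (-0.86 ± 0.12). COX4 of cytochrome oxidase was lower by 0.26 ± 0.06. Under upper-quartile scaling the respiratory median was -0.14 with 12 genes lower, and of 16 respiratory genes that could be tested without mutant library 1, 3 were lower. Of 27 genes of beta-oxidation and acyl transport, 7 were lower and 1 higher (median -0.17, and -0.09 under upper-quartile scaling), TES1 by -1.09 ± 0.16. The lower share was near that of all genes, and 4 of 17 that could be tested were lower without mutant library 1. By the authors' deposited table, 13 of the 27 were lower. The acyl-CoA oxidase POX1 was one of the genes on which the methods differ, with a difference of -0.60 ± 0.41 (limma adjusted p = 0.26) and an adjusted p of 1.3e-30 in the authors' deposited table. Likewise FOX2, the second enzyme of the pathway, gave -0.34 ± 0.33 (adjusted p = 0.43, and 1e-10 in the authors' deposited table), and the acetyl-CoA synthetase ACS1 -0.35 ± 0.32 (adjusted p = 0.40, and 1.1e-11 in the authors' deposited table). The libraries of these 3 genes are not known in either late RB group, so their SE rests on the other groups. ACS2, the other acetyl-CoA synthetase, had 3304 and 3435 reads in the mutant and 3289 and 3288 in wild type (0.04 ± 0.06, adjusted p = 0.69). Of 24 genes of gluconeogenesis, glyoxylate and acetate use, 7 were lower and 3 higher (15 lower in the authors' deposited table, and 1 of 13 and 1 of 16 higher without mutant library 1 and wild-type library 1), and of 29 peroxins 6 were lower and 7 higher, close to the percentages of all genes. The peroxin counts were 2 lower and 3 higher without mutant library 1, and 3 lower and 4 higher without wild-type library 2.

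Lipid, metal and ion genes showed no common direction. Over all tested genes, 25.5% were higher and 21.7% lower. Ergosterol genes were lower in 11 and higher in 5 of 29, with the sterol esterification enzyme ARE2 lower by 1.05 ± 0.09 and ERG2 higher by 0.69 ± 0.08. Of 24 genes of fatty acid and phospholipid synthesis, 5 were lower and 10 higher, and without mutant library 1 and wild-type library 1 in turn 3 and 2 were lower. The lower ones included the rate-limiting enzyme ACC1 (-0.88 ± 0.09) and the fatty acid synthase subunit FAS2, with 7820 and 7906 reads in the mutant and 12670 and 12700 in wild type (-0.69 ± 0.08). Of 29 iron genes, 10 were lower and 3 higher, led by the cell-wall siderophore-binding proteins FIT3 (-1.87 ± 0.14), FIT2 (-1.45 ± 0.14) and FIT1 (-1.11 ± 0.24). Of 24 phosphate genes 7 were lower and 2 higher, and of 16 genes of sodium pumps and ion transport 4 were lower and 5 higher. The lower shares of both lists lay near that of all genes. By the authors' deposited table, 4 phosphate genes were lower and 1 higher. Among the ion transport genes, ENA2 and ENA5, near-identical copies of a sodium pump, were higher by 1.64 ± 0.21 and 1.66 ± 0.23.

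Histone genes were lower together. Of 11 genes, 9 were lower and 1 higher, with a median of -0.77. HHT1, which encodes histone H3, had 1887 and 2043 reads in the mutant, against 4127 and 4217 in wild type (YBR010W, chromosome II, 256331 to 256741), a difference of -1.09 ± 0.11 (adjusted p = 5.6e-07). HTB1, which encodes H2B, had a deposited log2 level of 11.46 in the mutant and 12.43 in wild type (-0.97 ± 0.06), and HTA1, which encodes H2A, 11.83 in the mutant and 12.73 in wild type (-0.90 ± 0.08). The 2 genes not lower, named after their values were seen, were the H2A variant gene HTZ1 (-0.13) and the centromeric H3 gene CSE4, which was higher (0.28). Of the 8 histone genes that could still be tested without 1 library, 5 to 7 were lower, with 5 without wild-type library 2.

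Among cell-cycle genes of other stages, those of G2 and mitosis were more often higher than all genes (25.5%). Of 22 genes of G2 and mitosis, 14 were higher and 2 lower (median 0.38), or 12 to 14 higher and 1 lower when each late RB library was left out in turn, among them the mitotic kinase gene KIN3, with 254 and 276 reads in the mutant against 114 and 114 in wild type (1.21 ± 0.12), the anaphase activator CDC20, with 546 and 580 against 336 and 295 in wild type (0.84 ± 0.08), and the mitotic exit kinase DBF2 (0.71 ± 0.08). Of 19 G1 and S regulators 6 were higher and 2 lower, or 0 or 1 lower when each late RB library was left out in turn. The higher share lay near that of all genes. They included FAR1, which arrests cells in G1, with 652 and 611 reads in the mutant against 205 and 227 in wild type (1.55 ± 0.09), and the G1 cyclin CLN1 (0.85 ± 0.10). Of 55 DNA replication genes 18 were higher and 4 lower (median 0.17), with the helicase subunits MCM5 and MCM7 higher by 0.72 ± 0.07 and 0.57 ± 0.08. By the authors' deposited table, 7 of 56 replication genes were higher, a smaller share than the 18.8% of all genes there. Genes of daughter cell separation, which act after division, were higher in 7 and lower in 1 of 12 (median 0.32), with the daughter-cell repressor ASH1 at 1843 and 2220 reads in the mutant and 1307 and 1269 in wild type (0.65 ± 0.09). Here mutant library 1 was below library 2 in 12 of 12 genes, by a median of 0.18 log2, and the higher count was 3 without mutant library 2 and 4 without wild-type library 2. Since RNA is a pool of the culture, a change in the share of cells at a stage and a change in RNA per cell cannot be told apart.

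Mating and cell-surface genes were higher in part. Of 26 mating and pheromone genes, 13 were higher and 0 lower (median 0.35). PRM5, a pheromone- and cell-wall-stress-regulated membrane protein, had 387 and 414 reads in the mutant, against 134 and 125 in wild type (1.62 ± 0.12), and SAG1, the agglutinin of alpha cells, had a deposited log2 level of 10.34 in the mutant and 9.49 in wild type (0.85 ± 0.12). Of 33 cell wall genes 15 were higher and 4 lower, among them UTR2 and the flocculin gene FLO11, with 444 and 469 reads in the mutant and 138 and 143 in wild type (1.69 ± 0.13). Of 27 meiosis and sporulation genes 6 were higher and 3 lower, with RIM4 higher by 0.67 ± 0.16, SSP1 higher by 0.96 ± 0.11 and the meiotic kinase gene IME2 at -0.77 ± 0.27 (limma adjusted p = 0.025). The higher share lay below the 25.5% of all genes. The counts were 3 higher and 4 lower without mutant library 2, and also by the authors' deposited table, and 3 higher and 2 lower without wild-type library 2. IME2 was not called without mutant library 1 or either wild-type library, with adjusted p-values of 0.13, 0.071 and 0.094.

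The genes of TAF14's partners showed no common direction. Over all tested genes, 25.5% were higher and 21.7% lower, and the shares of the lists given here lay near or below these. Of 43 genes of the complexes that contain it, 8 were higher and 11 lower, with a median of -0.06 that was 0.02 under upper-quartile scaling. The lower count was 7 under that scaling and 7 without wild-type library 1. TFG1, the largest subunit of TFIIF, had 980 and 1021 reads in the mutant and 1539 and 1499 in wild type (-0.60 ± 0.07). SNF2, the ATPase of SWI/SNF, had 586 and 596 in the mutant and 861 and 822 in wild type (-0.51 ± 0.07), and IES5 of INO80 had 295 and 276 in the mutant and 121 and 126 in wild type (1.20 ± 0.11). The ATPase gene INO80 (-0.09 ± 0.07, adjusted p = 0.31), TAF1 of TFIID (-0.15 ± 0.07, adjusted p = 0.093) and the NuA3 subunit genes SAS3 (-0.16 ± 0.09, adjusted p = 0.13) and NTO1 (-0.03 ± 0.11, adjusted p = 0.86) were not called, although TAF1 was called lower (-0.25, adjusted p = 0.031) without wild-type library 2. The other YEATS genes were not called either, YAF9 at 0.29 ± 0.13 (adjusted p = 0.08, and 0.027 with upper-quartile scaling, 0.023 without mutant library 2) and SAS5 at 0.14 ± 0.10 (adjusted p = 0.28). Of 14 RSC genes 2 were lower and 0 higher, a lower share below the 21.7% of all genes, with 1 lower without mutant library 2, wild-type library 1 or wild-type library 2 and 0 lower by the authors' deposited table. Of 36 histone acyl transferases, readers and deacetylases 7 were higher, or 3 without mutant library 1, and 8 lower. EPL1 of NuA4 had 683 and 712 reads in the mutant and 1491 and 1574 in wild type (-1.14 ± 0.06), the elongator acetyltransferase ELP3 had 203 and 178 in the mutant and 95.9 and 94.4 in wild type (0.99 ± 0.10), the deacetylase HDA1 252 and 214 in the mutant and 149 and 136 in wild type (0.71 ± 0.10), and RPD3, the main class I deacetylase, was lower by 0.25 ± 0.06.

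How these differences compare with other phases was asked by testing the mutant difference at late RB against that at other time points, in the same fit. Late RB differences were spread more widely than at any other time point, with an SD over genes of 0.573, against 0.468 at early OX, 0.449 at late OX, 0.513 at early RB and 0.361 at RC. The share of genes called at these other phases was 49.2% at early OX, 47.4% at late OX, 43.4% at early RB and 29.9% at RC. They resembled those of early RB, which come from other libraries: across genes, which are not independent replicates, the Pearson r was 0.812 with early RB, 0.54 with RC, 0.297 with late OX and 0.229 with early OX. Of the 1517 genes higher at late RB 1092 were also higher at early RB, which is 72% of the late RB list and 72.4% of the early RB list. Of the 1292 lower genes 754 were also lower at early RB (58.4% of the late RB list and 70.5% of the early RB list), and 23 were higher there.

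The difference itself changed between early and late RB for 292 genes (4.91% of those tested), 122 with a more positive and 170 with a more negative value at late RB (2.05% and 2.86%). That count is sensitive. It was 602 with only the groups of the contrast in the fit, and 138, 149, 176 and 144 without mutant early RB library 1, mutant late RB library 1, wild-type early RB library 1 and wild-type late RB library 2. Upper-quartile scaling left the total at 288 but turned the balance to 163 more positive and 125 more negative. Genes of sulfur metabolism were prominent among the more positive ones, with 15 of 32 more positive and 0 more negative at late RB. For MUP1 the mutant difference was 2.84 at late RB and 0.87 at early RB, a change of 1.98 ± 0.22 (limma adjusted p = 5.7e-05). For MET5 it was 1.84 at late RB and 0.30 at early RB (1.54 ± 0.15, adjusted p = 2.1e-05), and for SAM1 2.18 at late RB and 0.94 at early RB (1.24 ± 0.14, adjusted p = 8.3e-05). In the nitrogen list 14 of 41 were more positive and 1 was more negative, among them AGP1, while MEP3 was the more negative one (-0.16 at early RB, -1.36 at late RB).

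On the other side were chaperones, with 15 of 29 heat shock genes more negative at late RB and 1 more positive, along with 8 of 34 stress genes and 6 of 11 histone genes. PMA2 was lower by 1.23 at early RB and by 3.31 at late RB (difference -2.08 ± 0.18, adjusted p = 4e-06). The sign itself turned for SRY1, a hydroxyaspartate dehydratase, which was higher in the mutant by 0.72 at early RB and lower by 1.41 at late RB, with 364 and 435 reads in the mutant and 1050 and 1064 in wild type (difference -2.12 ± 0.15, adjusted p = 8.1e-07). SSA3 likewise was higher by 0.53 at early RB and lower by 0.76 at late RB (difference -1.29, adjusted p = 0.015, and 0.065 without mutant early RB library 1). For the histone HHT1 the difference between the time points was -0.59 (adjusted p = 0.036), which did not hold in 6 of the 8 fits that each left out 1 library, with adjusted p-values up to 0.13. The ribosomal lists were also higher at early RB, with medians of 0.93 for ribosomal protein genes, 1.29 for processome and 1.24 for assembly genes there, and 0 of 99 ribosomal protein genes, 7 of 60 processome genes and 3 of 78 assembly genes past the test of the difference. TKL2, the gene with the largest decrease, did not pass it either (-4.07 at early RB, -4.83 at late RB, adjusted p = 0.17).

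Against RC, the next phase, 1306 differences changed (22%), 829 more positive (14%) and 477 more negative (8.03%) at late RB (856 in all without mutant late RB library 1). Here the ribosomal lists separated the time points, with 91 of 99 ribosomal protein genes, 50 of 60 processome genes and 68 of 78 assembly genes more positive at late RB. For SDA1 the mutant difference was 2.19 at late RB and 0.16 at RC, and for TSR2 2.22 at late RB and 0.23 at RC. Among the more negative genes, the values were -2.91 at late RB and -0.30 at RC for YRO2 (-2.61, adjusted p = 3.9e-07), and -2.63 at late RB and -0.12 at RC for HSP12 (-2.51, adjusted p = 1.4e-05). For the glycolysis gene TDH1 they were -1.59 at late RB and -0.04 at RC (-1.55, adjusted p = 0.00073). For CTT1, at -3.56 at late RB and -3.47 at RC, the change did not pass (adjusted p = 0.9). Against the mean of the other 4 time points, 1069 genes were more positive (18%) and 830 more negative (14%). The total was 1219 without mutant late RB library 1. The balance was 984 more positive and 1027 more negative without wild-type early OX library 1, and 1247 and 654 under upper-quartile scaling. By this measure 24 of 32 sulfur genes, 89 of 99 ribosomal protein genes and 70 of 78 assembly genes were more positive, and 26 of 29 heat shock, 26 of 34 stress, 23 of 34 proteasome and 9 of 11 histone genes more negative, at late RB.

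**Figure D4:**
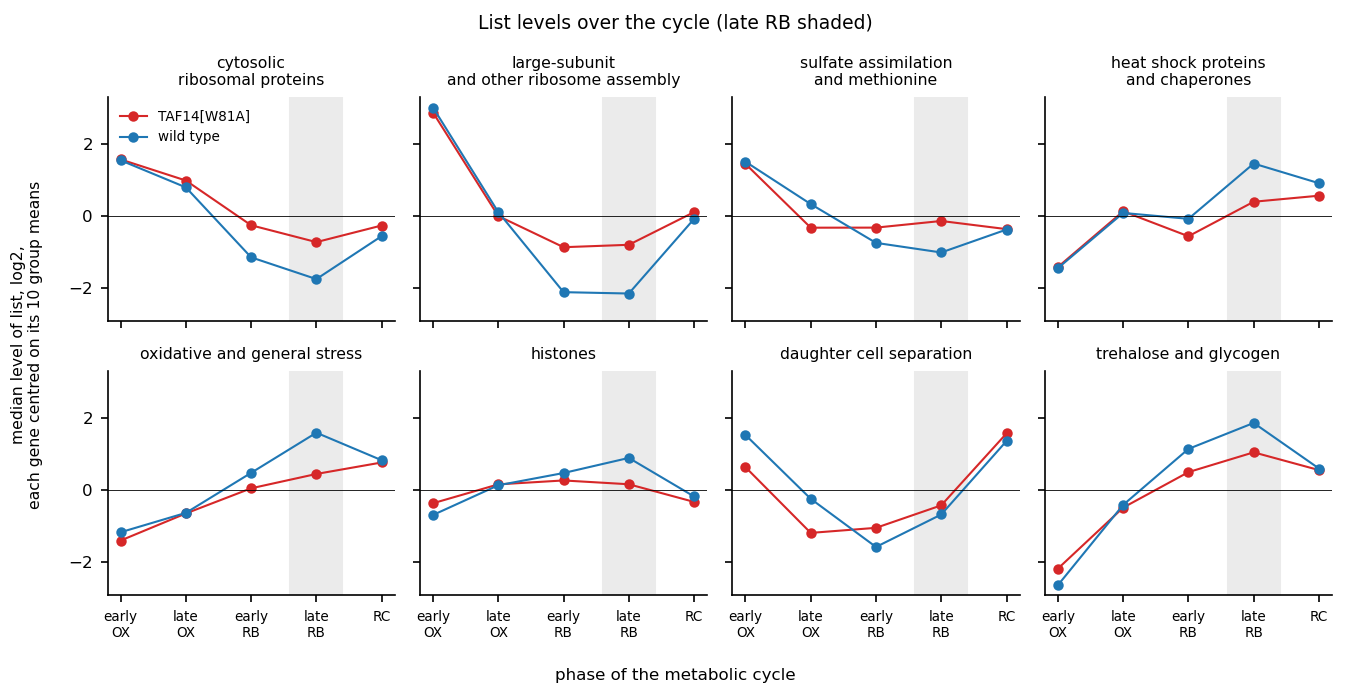
Median level of 8 gene lists in TAF14[W81A] and in wild type over the 5 phases of the cycle (log2, each gene centred on the mean of its 10 groups), with late RB shaded. Ribosomal protein and assembly genes stood lower at RB than at early OX in both strains, and higher in the mutant than in wild type at RB, while heat shock, stress, histone and trehalose genes peaked at late RB in wild type and reached a lower level in the mutant.

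Levels of some of these lists are given here over the cycle. The median level of large-subunit and other assembly genes, centred on the 10 groups, stood at -0.80 in the mutant and -2.16 in wild type at late RB, and at 2.88 in the mutant and 3.02 in wild type at early OX. That of ribosomal protein genes was -0.73 in the mutant and -1.76 in wild type at late RB. Heat shock genes stood at 0.40 in the mutant and 1.46 in wild type at late RB and at 0.57 and 0.91 at RC, and stress genes at 0.44 in the mutant and 1.59 in wild type at late RB, and at 0.76 and 0.83 at RC. Histone genes were at 0.16 in the mutant and 0.89 in wild type at late RB. The sulfur genes were at -0.14 in the mutant and -1.02 in wild type at late RB, after having been below wild type at late OX (-0.33 in the mutant and 0.33 in wild type).

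A grouping of all genes by the preceding step of the wild-type cycle, made with the late OX and early RB libraries that the late RB difference does not use, was compared with the late RB difference. Among 720 genes at least 1 log2 lower in wild type at early RB than at late OX, 571 were higher in the mutant at late RB (79.3%) and 18 lower (2.5%), with a median difference of 0.78. Among 582 genes at least 1 log2 higher at early RB, 37 were higher (6.36%) and 256 lower (44%), with a median of -0.35. Among the 4639 genes between, 909 were higher (19.6%) and 1018 lower (21.9%), with a median of -0.01. With a threshold of 0.5 log2 the medians were 0.48 and -0.25. Because both libraries of a group carry a single time point label, an effect of the mutation on these genes and a different position of the mutant culture within its cycle at the time of sampling cannot be told apart.

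**Figure D5:**
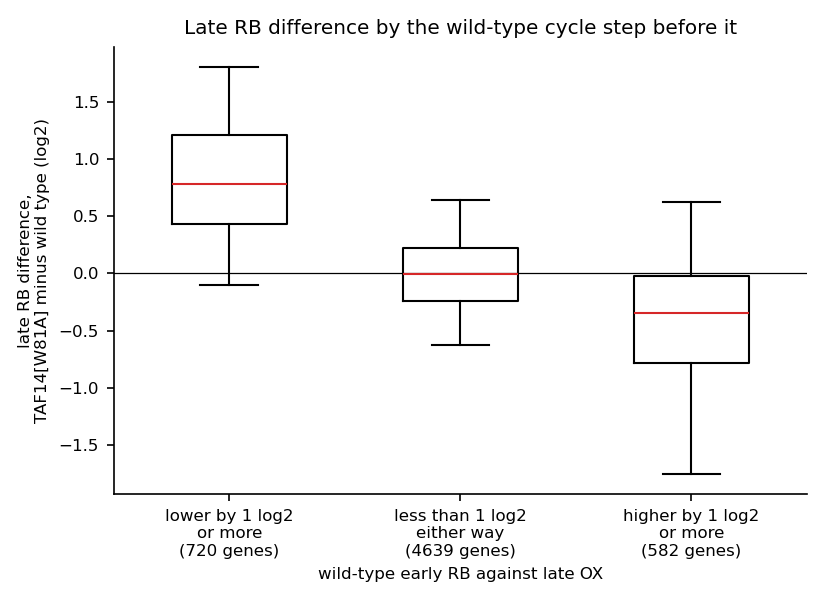
Late RB difference (TAF14[W81A] minus wild type, log2) of genes grouped by how wild type changed between late OX and early RB; boxes give the quartiles, red lines the median and whiskers the 5th and 95th percentiles. Genes that wild type turns down in this step are mostly above 0, with a median of 0.78, and genes that it turns up mostly below, with a median of -0.35.

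The median gene length was 1104 bases for higher, 1470 for lower and 1222 for not called genes. Reads were recovered with gene length and tested without dividing by it, so these medians are not independent of the calls. A histone mark was not used in the calls. H3K9ac, the acetylation of histone H3 at lysine 9, was available as the deposited signal over position bins of each gene, from 1 wild-type ChIP library per time point and on a scale that is not stated. Its mean over 5 bins around the peak on the start side of the gene at late RB had a median of 0.70 for genes higher in the mutant, 1.00 for lower genes and 0.88 for genes not called. These classes also differed in RNA level. The median deposited log2 level in wild type was 5.95 for higher, 7.52 for lower and 6.04 for not called genes. The part of level in the signal was not tested. By list, the median was 0.47 for ribosomal protein genes, 0.46 for processome genes and 0.49 for assembly genes, against 1.36 for heat shock, 1.58 for stress and 1.97 for histone genes and 0.85 over all genes. The ribosomal protein genes thus had a low signal at a high RNA level, with a wild-type median of 9.29 on the deposited log2 scale. With 1 library there is no spread, so these medians are descriptions, and the part of the mark in the differences was not tested.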

How the data were processed

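Per the file headers, the deposited RNA table gives for each gene and time point a log2 level in wild type and in the mutant, each combining 2 libraries, with the authors' log2 fold change and adjusted p-value. Tools listed in the submitters' processing notes are BWA, DESeq2, MACS2 and deepTools, with the build sacCer3 and no versions. The deposited ChIP table gives a signal per position bin of each gene, whose scale is not stated.

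Each deposited level, multiplied by gene length, was solved as a sum of whole reads from 2 libraries, allowing an error of 1.15 times the last decimal's rounding. At the RefSeq length 5438 genes (94.6% of those with a length) gave whole reads in all 10 groups, against 1.15% at shuffled lengths, 519 did so at a searched length, and 51 had none. Reads of all 20 libraries, on the authors' scaling and with a pseudocount of 1, were fitted in 1 model of 10 group means (limma 3.58.1, R 4.3.3, mean-variance trend, prior degrees of freedom 6.05), with two-sided moderated tests and Benjamini-Hochberg adjustment over 5941 genes at a threshold of 0.05. The procedure was tested on simulated data. No count test was run, since the deposited unit is log2.

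The 38 gene lists and the named genes were chosen with earlier results of these data known. Named genes were first the 12 highest and 12 lowest called genes and the 3 with the largest difference in each list. These had a mean of at least 50 normalised reads and no overlap of libraries where these are known. Further named genes were the 5 at each end of each comparison of differences and a set fixed by name. Those from the comparisons had a mean of at least 50 normalised reads, and overlap of libraries was not considered. Alternatives were a pseudocount of 5, a filter at 50 reads, upper-quartile scaling, only the compared groups in the fit, only genes with single solutions, the authors' deposited p-values and leaving out each library. H3K9ac bins were read with the gene start at the low bin numbers, since bin 1 correlated between divergent neighbours (r = 0.83 over 665 pairs) and not between convergent ones (0.04 over 1082 pairs). Later lines of the ChIP table were not used here. The result of 1 gene is not reported here.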

Additional observations from a re-analysis of the deposited data

Results flagged for a closer look

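The mutant difference at late RB departed from that at other time points in 292 genes against early RB, in 1306 against RC and in 1899 against the mean of the other 4 time points, each by the limma test of the difference itself.

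Among the genes named here, 32 passed the test against early RB, and the values here are the late RB difference minus the early RB difference on the log2 scale. More positive at late RB were the sulfur genes MUP1 (1.98), MET5 (1.54), MET14 (1.51), MET1 (1.40) and SAM1 (1.24). The glycerol transporter STL1 (1.65) also belonged here because its difference was -3.82 at early RB and -2.17 at late RB. Other metabolic and transport genes were SER33 (1.16), AGP1 (1.03) and PEX25 (0.45). Genes of translation and ribosome assembly were KRS1 (0.87), NOP2 (0.73) and YEF3 (0.54). Chromatin genes were HDA1 (0.78) and ELP3 (0.75). Cell-cycle and replication genes were CLN1 (0.63), DBF2 (0.43), MCM7 (0.42) and MCM5 (0.39).

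More negative at late RB were SRY1 (-2.12), PMA2 (-2.08), CTT1 (-1.93), ALD3 (-1.81), ERR1 (-1.81), ERR2 (-1.57) and HBT1 (-1.49). The HSP70 gene SSA3 (-1.29), the ammonium permease gene MEP3 (-1.20), the enolase gene ENO1 (-0.92) and the NuA4 gene EPL1 (-0.74) followed. The histone genes were HHT1 (-0.59), HTA1 (-0.56) and HTB1 (-0.40). For most of the 32 genes, 8 fits could leave out 1 library. Where libraries are not known there were fewer, with 2 for HTA1, 4 for HTB1 and ENO1 and 6 for MET14 and SSA3. In 22 of the 32 genes the call held in every fit that left out 1 library, and in ERR2, PEX25, MCM5, MCM7, HHT1, HTB1, DBF2, SSA3, STL1 and NOP2 it did not.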

How the results depend on the processing

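The number of genes called at late RB, 2809, was within 1.5 times of this under every alternative run, with 2129 to 2254 when a library was left out. Against early RB the count was 602 with only the compared groups in the fit and 138 to 247 when a library was left out. Against RC it was 856 to 1066 and against the mean of the other time points 1219 to 2011 when a library was left out. Fitting only the groups of the contrast was not run separately for the mean of the other time points, since that contrast uses all groups. Of 1166 values of the 154 named genes under the alternatives, 1127 kept their side of the threshold, 32 were no longer called and 7 became called. Where a gene was called in either fit, 0 values changed sign. Sign changes of genes called in neither fit were not counted. The median of the TCA cycle list changed sign, to 0.327 to 0.429, when a library was left out, which leaves 3 to 6 of its 14 members. Some smaller list medians changed sign as well. That of ergosterol synthesis went from -0.03 to 0.047 under upper-quartile scaling, and that of nitrogen genes from 0.063 to -0.003 without wild-type library 2. Genes lower in wild type at early RB had a median difference of 0.476 with a threshold of 0.5 log2 and 0.856 with upper-quartile scaling, and genes higher at early RB -0.25 and -0.273. With the highest bin, the median H3K9ac signal was 0.891 for higher and 1.23 for lower genes. No paired analysis was possible because the recovered libraries could not be tied to the letters A and B. With 2 libraries per group, genes whose libraries are not known rest on the spread of other groups, and small differences are the least certain.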

Other observations

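Among the 1306 genes whose mutant difference changed between late RB and RC were HSP30, FIT2 and GSY2. HSP30, a membrane heat shock protein, had 486 and 607 normalised reads in the mutant and 936 and 1040 in wild type at late RB, a difference of -0.86, whereas at RC it was higher in the mutant by 1.66 (late RB minus RC -2.52, limma adjusted p = 7.7e-06). The difference of FIT2 was -1.45 at late RB and 0.23 at RC, and that of GSY2 was -1.63 at late RB and 0.10 at RC.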
